A study of Mus musculus with 4 samples.

Results

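A group of 10 genes that carry, export, take up or bind lipids and lipid-coated debris were followed across glia and other cells of the mouse paraventricular nucleus region of the hypothalamus, in the light phase and in the dark phase. They are the apolipoproteins Apoe and Clu, the exporters Abca1 and Abcg1, the receptor Lrp1, the lipase Lpl, the fatty acid carriers Fabp7 and Cd36, and the receptor kinases Mertk and Axl. They were chosen by name, with earlier results of these data known, and all 10 were found among the 32285 genes of the count matrices. RNA of single nuclei was counted with the 10x Genomics 3' assay in 2 libraries collected at Zeitgeber time 8 (ZT8, in the light) and 2 at ZT20 (in the dark), where Zeitgeber time is counted in hours from lights on. Every library pooled micropunched tissue of 5 male C57Bl6 mice aged 10 weeks, and the labels give collection time as the only treatment and name no transgene or mutation. Nothing in the labels says that the 2 libraries collected at 1 time used different mice, so p-values measure only the spread between libraries, which may be technical.

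In the brain, lipids move between cells mostly as small particles that astrocytes load through ABC transporters onto apolipoproteins, and neighbouring cells take the particles up through lipoprotein receptors. Fatty acids are carried inside cells by small binding proteins. Receptor kinases of the TAM family recognise phosphatidylserine on dying cells and shed membrane through bridging proteins, and microglia and astrocytes use them to engulf debris.

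The libraries held 6453 to 9413 barcodes and 57970649 to 69223344 unique molecular identifiers (UMIs, each 1 captured RNA molecule). After filtering, 28980 nuclei remained, with median UMIs of 4366 and 5148 at ZT8 and of 3437 and 2063 at ZT20. Of these, 16954 lay in clusters that carried the markers of 1 of 10 cell classes, called "-like" throughout. Each library shared 41 to 69 barcodes with another. The punches differed in makeup between times: oligodendrocyte-like nuclei were 14.7% and 14.9% of nuclei at ZT8 and 7.34% and 5.55% at ZT20, and tanycyte-like nuclei numbered 1 and 1 at ZT8 against 91 and 94 at ZT20. In neuron-like nuclei Sim1, a marker of the paraventricular nucleus, was at 4.77 and 6.19 CPM (the gene's share of all UMIs summed over the nuclei of a class in a library, on the CPM scale) at ZT8 and at 29.6 and 23.2 CPM at ZT20, and the thalamic marker Tcf7l2 was at 543 and 550 CPM against 377.5 and 365 CPM. The ZT8 punches thus held little of the labelled nucleus by these markers, and time of day and punch position cannot be told apart in any difference below. The summed CPM of a class alone does not tell fewer nuclei holding a gene's RNA from less of that RNA per nucleus.

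In astrocyte-like nuclei 3 members differed between the times: Apoe and Fabp7 were higher and Mertk lower at ZT20. Their promoters, from 250 bases before to 50 after a RefSeq transcription start on GRCm38.p6, are shown because these genes carry the time comparison. The capitals in Fabp7 mark the reverse complement of TAGGTCA, letters known to be bound by the clock receptors of the ROR and REV-ERB families. RefSeq promoters were matched for 7 of the 10 members, 9 promoters in all.

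Fabp7 (chr10:57784673-57784972, plus strand): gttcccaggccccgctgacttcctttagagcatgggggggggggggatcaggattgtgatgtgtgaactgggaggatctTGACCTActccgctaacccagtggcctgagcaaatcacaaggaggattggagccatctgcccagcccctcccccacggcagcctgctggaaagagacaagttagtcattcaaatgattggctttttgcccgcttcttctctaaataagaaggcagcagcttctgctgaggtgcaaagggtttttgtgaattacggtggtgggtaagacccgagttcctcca
Apoe (chr7:19699139-19699438, minus strand): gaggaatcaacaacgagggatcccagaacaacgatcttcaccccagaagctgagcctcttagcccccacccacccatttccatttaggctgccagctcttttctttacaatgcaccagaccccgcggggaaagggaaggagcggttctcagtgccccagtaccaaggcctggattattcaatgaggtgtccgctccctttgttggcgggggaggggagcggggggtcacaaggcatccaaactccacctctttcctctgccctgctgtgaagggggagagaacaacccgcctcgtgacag
Mertk (chr2:128698665-128698964, plus strand): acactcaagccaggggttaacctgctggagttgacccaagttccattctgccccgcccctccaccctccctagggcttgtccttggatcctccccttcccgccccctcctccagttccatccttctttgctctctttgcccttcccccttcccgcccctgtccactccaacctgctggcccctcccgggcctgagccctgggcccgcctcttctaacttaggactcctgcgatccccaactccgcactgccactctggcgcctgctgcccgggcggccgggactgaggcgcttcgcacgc

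In the Fabp7 window the motif begins 171 bases before the start. Searched on both strands, TAGGTCA was present in 856 of all 32851 RefSeq promoters of this length (2.61%) and, among the members, in Fabp7. The E-box CACGTG, which clock factors of the basic helix-loop-helix family can bind, was in 2349 of them (7.15%) and, among the members, in Abca1 (chr4:53159846-53160145, minus strand), 147 bases before the start. A direct repeat of AGGTCA with 4 bases between its copies, a form of site bound by liver X receptors, was in 5 promoters (0.0152%) and in no member. A match describes the letters of the window and is not a binding site.

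Apoe, the main apolipoprotein of brain lipid particles (chr7:19696109-19699188, minus strand, GRCm38), had its highest level, of the 9 classes with enough nuclei, in astrocyte-like nuclei in every library. It was at 3992 and 3697 CPM at ZT8 and at 4703 and 5019 CPM at ZT20 there, a mean of 4353 CPM. Tanycyte-like nuclei, measured in the ZT20 libraries, followed at 2883 and 3122 CPM. Endothelial-like, oligodendrocyte precursor (OPC)-like and fibroblast-like nuclei lay at means of 998, 935 and 813 CPM, and microglia-like, mural-like and oligodendrocyte-like nuclei at 527, 525 and 522 CPM. Each neighbour in that run from endothelial-like to oligodendrocyte-like overlapped the next over the libraries. Neuron-like nuclei were lowest, at 67.9 CPM, and the astrocyte-like level was 59 to 71.7 times theirs within a library.

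Apoe RNA was also present in droplets that should lack it. A cluster of 73 nuclei led by haemoglobin genes, with a median of 938 UMIs, served as a gauge of free RNA, as did unnamed clusters of 10482 nuclei with a median of 889 UMIs. The latter held Apoe at 820 to 847 CPM in the 4 libraries. They were mostly different clusters at each time: the ZT8 libraries gave 132 and 201 nuclei to 1 of them and the ZT20 libraries 2738 and 3755, while another held 1248 and 1332 against 102 and 137, so their levels do not compare like with like between times. With every nucleus thinned to 500 UMIs, Apoe was seen in 83.0% of astrocyte-like nuclei (exact 95% interval 81.1 to 84.8; 99.9% unthinned, median 3970 UMIs) and in 42.5% of the haemoglobin-led cluster (31.0 to 54.6; 64.4% unthinned). Astrocyte-like and tanycyte-like nuclei (67.9%) had intervals above that of the haemoglobin-led cluster. In the clusters with few UMIs the Apoe share was 33.1% (32.2 to 34.0), below the OPC-like interval of 34.6 to 42.9. OPC-like (38.7%), fibroblast-like (35.9%), endothelial-like (34.3%), mural-like (24.7%), oligodendrocyte-like (21.8%), microglia-like (19.8%) and neuron-like nuclei (4.12%) had shares below 42.5%. Before thinning, the gauge had a median of 938 UMIs and these classes had medians of 2123 to 12988, so free RNA may weigh more in the gauge. How much of the Apoe in these classes was free RNA was not tested. Intervals cover counting error only.

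**Figure D1:**
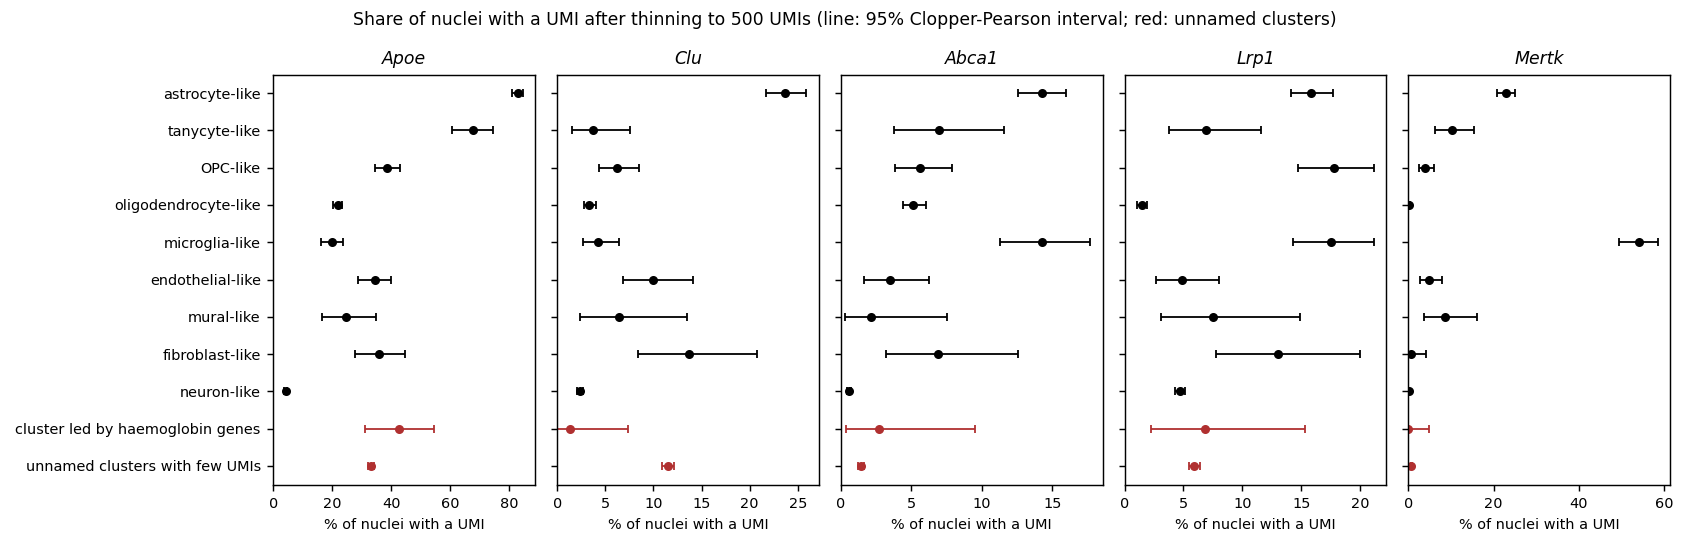
Percentage of nuclei with at least 1 UMI of Apoe, Clu, Abca1, Lrp1 and Mertk after thinning every nucleus to 500 UMIs, by cell class (points, with exact 95% intervals); red points are unnamed clusters used as gauges of free RNA. Apoe reaches 83.0% in astrocyte-like nuclei against 42.5% in the haemoglobin-led cluster, and Mertk 54.0% in microglia-like nuclei against 0%.

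Clu, a secreted chaperone that also travels on brain lipid particles (chr14:65968483-65981547, plus strand), was highest in astrocyte-like nuclei, at 577 and 565 CPM at ZT8 and 602 and 614 CPM at ZT20. No other class reached that range: endothelial-like nuclei followed at a mean of 166 CPM, and each further class overlapped its neighbour down to oligodendrocyte-like nuclei at 66.6 CPM, with neuron-like nuclei below them at 41.6 CPM. After thinning, Clu was seen in 23.7% of astrocyte-like nuclei, in 1.37% of the haemoglobin-led cluster (upper limit 7.40%) and in 11.5% of the clusters with few UMIs.

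Abca1, which moves cholesterol and phospholipid out of cells onto apolipoproteins (chr4:53030787-53159895, minus strand), had its highest means in 2 glial classes. It averaged 330 CPM in astrocyte-like nuclei (311 to 348 CPM) and 323 CPM in microglia-like nuclei (259 to 375 CPM), and these overlapped. Fibroblast-like nuclei, at a mean of 233 CPM (130 to 321.5 CPM), overlapped both. It was seen in 14.3% of the nuclei of either class after thinning, against 2.74% in the haemoglobin-led cluster (upper limit 9.55%). Abcg1, which passes sterols on to particles that already hold lipid (chr17:31057675-31117988, plus strand), had the opposite place in astrocytes. It was highest in oligodendrocyte-like nuclei at 115 CPM (107 to 126 CPM) and lowest of all 9 classes in astrocyte-like nuclei at 13.2 CPM (10.8 to 15.5 CPM). The oligodendrocyte-like level was 6.85 to 11.7 times the astrocyte-like one within a library, and even the neuron-like level, 41.0 CPM, lay 2.59 to 4.02 times above it. After thinning, Abcg1 was seen in 5.84% of oligodendrocyte-like nuclei (5.01 to 6.75). This lay below the upper limit of 7.40% in the haemoglobin-led cluster, whose share was 1.37%. It lay above the share in the clusters with few UMIs, 2.85% (2.54 to 3.19).

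Lrp1, a large endocytic receptor for Apoe-bearing particles (chr10:127538161-127621148, minus strand), was at 391 CPM in OPC-like, 384 CPM in fibroblast-like, 348 CPM in astrocyte-like and 341 CPM in microglia-like nuclei, each overlapping the next. Oligodendrocyte-like nuclei were the lowest at 27.6 CPM, and the OPC-like level was 11.6 to 17.8 times theirs. After thinning, Lrp1 was seen in 17.8% of OPC-like nuclei (14.7 to 21.2), 17.5% of microglia-like nuclei and 15.8% of astrocyte-like nuclei. Their intervals overlapped that of the haemoglobin-led cluster, which had a share of 6.85% (2.26 to 15.3). They lay above that of the clusters with few UMIs, which had a share of 5.91% (5.46 to 6.37). Gm16217 lies on the opposite strand of Lrp1, and how strand was handled in counting is not given in the sources used here.

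Fabp7, the fatty acid binding protein of glia and radial glia (chr10:57784881-57788450, plus strand), was measured in OPC-like nuclei at 48.0 CPM and in astrocyte-like nuclei at 46.4 CPM, which overlapped, and at 10.9 CPM or less elsewhere. Microglia-like nuclei held 2 Fabp7 UMIs in all, both in 1 ZT8 library. The clusters with few UMIs held Fabp7 at 25.8 and 17.9 CPM at ZT8 and at 25.6 and 28.4 CPM at ZT20, so the astrocyte-like ZT8 values of 29.8 and 24.5 CPM were close to these.

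Mertk, the TAM kinase with which microglia and astrocytes engulf debris (chr2:128698956-128802894, plus strand), did not overlap between the 3 classes where it was highest. It was at 1589, 1443, 1506 and 1607 CPM in microglia-like nuclei of the 4 libraries, at 437 to 603 CPM in astrocyte-like nuclei and at 163 and 189 CPM in tanycyte-like nuclei. The microglia-like level was 2.39 to 3.62 times the astrocyte-like one. Oligodendrocyte-like and neuron-like nuclei were at 3.12 and 1.44 CPM. Mertk was seen in 54.0% of thinned microglia-like nuclei, 22.8% of astrocyte-like nuclei and 0 of 73 nuclei of the haemoglobin-led cluster (upper limit 4.93%). Gm14011 lies on its opposite strand. Axl, the related kinase (chr7:25757273-25788705, minus strand), was highest in mural-like nuclei at 176 CPM and averaged 54.1 CPM in astrocyte-like nuclei. In microglia-like nuclei it was at 16.0 and 5.49 CPM at ZT8 and had no UMI in either ZT20 library. After thinning, Axl was seen in 8.60% of mural-like nuclei (3.79 to 16.2) and in 0% of the haemoglobin-led cluster (upper limit 4.93%), and these intervals overlapped.

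Lpl, which releases fatty acids from lipoproteins (chr8:68880491-68907448, plus strand), and Cd36, a scavenger receptor and fatty acid transporter (chr5:17781690-17888801, minus strand), had low mean levels in every class. In neuron-like nuclei, the largest class, they held 792 and 354 UMIs in all and were seen in 5.58% and 2.16% of unthinned nuclei. Mean Lpl ranged from 2.09 to 16.0 CPM, with every class overlapping its neighbour in the order. Mean Cd36 ranged from 0 CPM in mural-like and tanycyte-like nuclei to 5.43 CPM in endothelial-like nuclei, where 1 library held all of it.

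**Figure D2:**
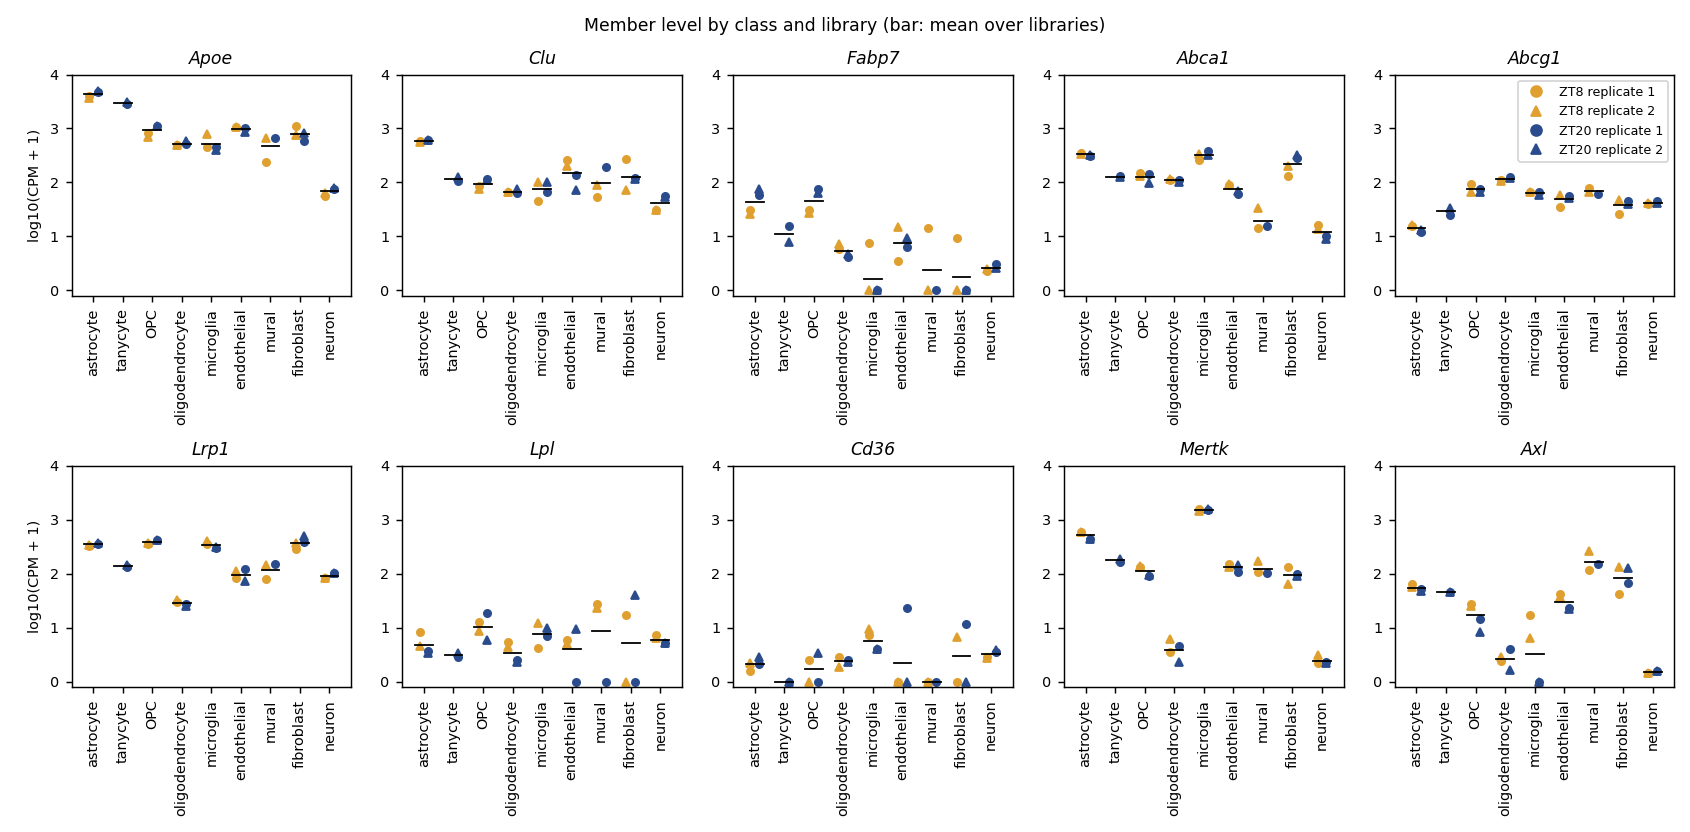
Level of the 10 members by cell class, as log10(CPM + 1) of UMIs summed over the nuclei of a class in each library (points; log axis). Apoe, Clu and Abca1 have their highest means in astrocyte-like nuclei, at 4353, 590 and 330 CPM, where Abca1 overlaps microglia-like nuclei (323 CPM). Mertk is highest in microglia-like nuclei at 1536 CPM, while Lpl and Cd36 stay low in all classes.

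In all, 7 members had their highest mean in a glial class and 3 (Lpl, Axl and Cd36) elsewhere. For these 3 and for Fabp7, Abca1 and Lrp1 the highest class overlapped the next over the libraries. Lrp1 counts as glial on a mean of 391 CPM in OPC-like against 384 CPM in fibroblast-like nuclei. The share of all genes that are highest in a glial class is not given here, so the split is only a description. Over the means of 9 classes, the genes whose log levels followed a member most closely were Cd63, Plpp3 and Nfia for Apoe (Pearson's r 0.947, 0.938 and 0.919). They were Ndrg2, Ntsr2 and Pla2g7 for Clu (0.976, 0.966 and 0.964), Slc13a5, Scrg1 and Hes5 for Fabp7 (0.954, 0.948 and 0.924), and Mical1, Sat1 and Prkra for Mertk (0.917, 0.914 and 0.912). Mpdu1 (0.971) followed Abca1, Dock10 (0.929) Abcg1, Arhgef40 (0.931) Lrp1 and Vstm4 (0.955) Axl. These values describe 9 points that share libraries, free RNA and class depth.

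To ask how the members differed between light and dark, UMIs were summed per class and library and ZT20 was compared with ZT8 by edgeR's quasi-likelihood test. A gene was called when its p-value, adjusted by the Benjamini-Hochberg method over all genes tested in that class, was under 0.05. In astrocyte-like nuclei (428, 389, 429 and 402 nuclei), 3 of the 8 members that passed the filter on low counts were called, where 6.26% of all 12093 genes tested were. Lpl, at 2.41 to 7.16 CPM, and Cd36, at 0.597 to 1.81 CPM, did not pass it.

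Apoe in astrocyte-like nuclei was at 3992 and 3697 CPM at ZT8 and at 4703 and 5019 CPM at ZT20, and both ZT20 libraries lay above both ZT8 libraries. It rose 1.31-fold (log2 0.39, SE 0.05, edgeR adjusted p = 4.58e-08). After thinning to 500 UMIs its share of nuclei went from 79.9% (77.0 to 82.6) to 86.0% (83.5 to 88.3). In the clusters with few UMIs Apoe was 833 and 837 CPM at ZT8 and 820 and 847 CPM at ZT20, from the mostly different clusters described above.

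Fabp7 in astrocyte-like nuclei was at 29.8 and 24.5 CPM at ZT8 and at 57.6 and 73.6 CPM at ZT20, from 50, 41, 107 and 122 UMIs. It was 2.49-fold higher at ZT20 (log2 1.31, SE 0.18, edgeR adjusted p = 1.67e-06), the largest difference among the 8 members tested in this class. Fabp7 mRNA is known to cycle over the day in mouse brain. Nuclei with a Fabp7 UMI made up 9.18% at ZT8 and 22.6% at ZT20 at median depths of 3870 and 4055 UMIs. After thinning these were 1.10% (0.505 to 2.08) and 3.25% (2.15 to 4.69). The share in microglia-like nuclei, which should lack the gene, was 0.204% (up to 1.13, at a median of 2586 UMIs). In the haemoglobin-led cluster it was 1.37% (0.0347 to 7.40), an interval that covers both astrocyte-like shares. The clusters with few UMIs had thinned shares of 0.897% at ZT8 and 1.36% at ZT20, again mostly from different clusters.

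Mertk in astrocyte-like nuclei moved the other way, from 585 and 603 CPM at ZT8 to 437 and 443.5 CPM at ZT20, with no overlap. It was 1.30-fold lower at ZT20 (log2 -0.38, SE 0.06, edgeR adjusted p = 3.07e-05), and its thinned share was 27.2% (24.1 to 30.4) against 18.4% (15.8 to 21.2). The clusters with few UMIs, which differed between times, held Mertk at 22.1 and 25.3 CPM at ZT8 and at 11.3 and 9.30 CPM at ZT20. The part of free RNA in the astrocyte-like value was not tested.

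The other members tested in astrocyte-like nuclei were not called. Clu had a log2 difference of 0.14 (edgeR adjusted p = 0.169) and Lrp1, at 324 and 339 CPM against 358 and 370 CPM, one of 0.19 (adjusted p = 0.119). Abca1 was at -0.06 (0.736), Abcg1 at -0.34 (0.631) and Axl at -0.21 (0.539). The libraries of the times did not overlap for Clu, Lrp1, Abca1, Abcg1 and Axl either, nor for Lpl. A lack of overlap thus does not set the called members apart, and its share over all genes is not given here.

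**Figure D3:**
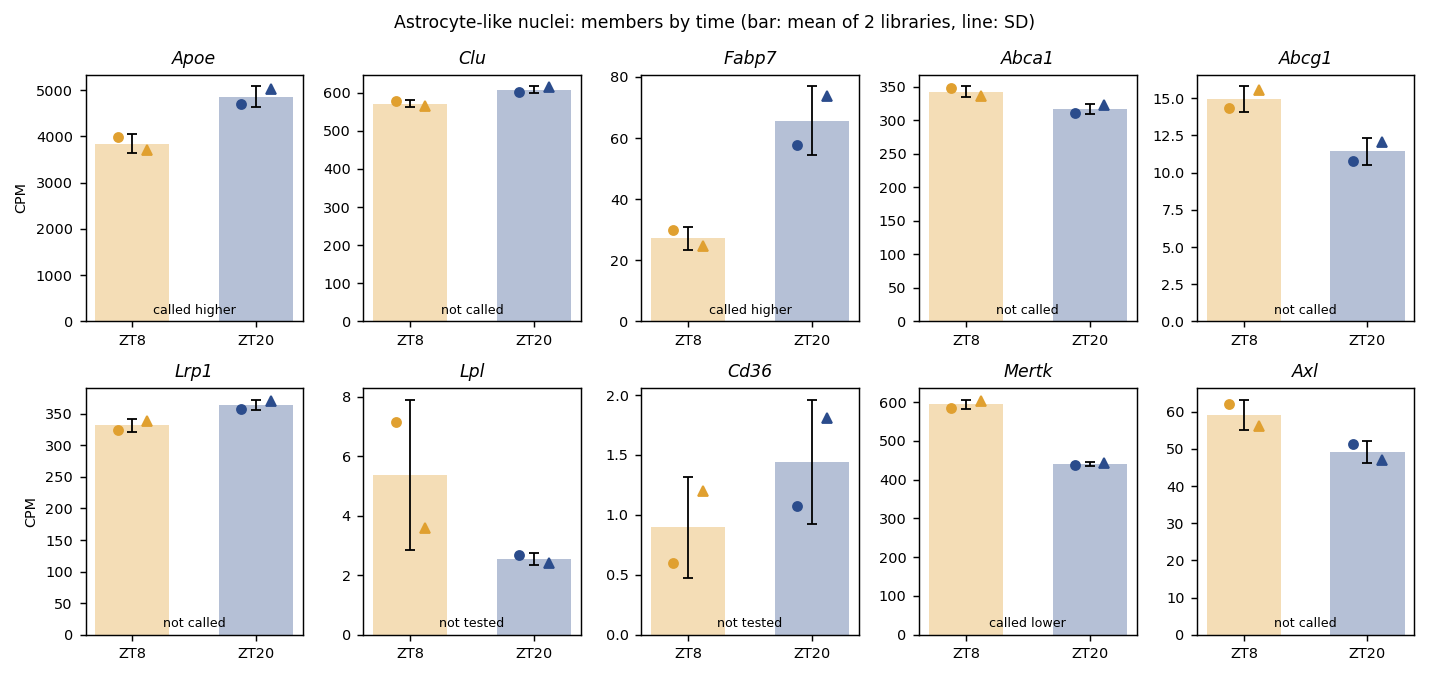
CPM of the members in astrocyte-like nuclei at ZT8 and ZT20 (points, libraries; bars, mean with SD, n = 2). Apoe goes from a mean of 3845 to 4861 CPM, Fabp7 from 27.2 to 65.6 CPM and Mertk from 594 to 440.5 CPM. The libraries of the times overlap for Cd36 and for no other member, called or not.

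Several measures of RNA moved with these changes in astrocyte-like nuclei. A list of 22 ribosomal protein genes summed to 2473 and 2405 CPM at ZT8 and to 3126 and 3174 CPM at ZT20, and 14 of the 22 were called higher. The 13 mitochondrial genes went from 1589 and 1553 CPM to 2148 and 2230 CPM, with 9 of 13 called higher. The 10 oligodendrocyte markers summed to 1080 and 1060 CPM at ZT8 and to 676 and 710 CPM at ZT20, none of them at 0. The part of these in the results was not tested.

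The mix of astrocytes also differed between the times. There were 5 subclusters, with 560, 488, 449, 96 and 55 nuclei. Of these, subcluster 2, led by Slit2, grew from 79 and 67 nuclei in the ZT8 libraries to 157 and 146 in the ZT20 libraries. When all libraries gave equal numbers of nuclei to every subcluster, the log2 differences were 0.40 for Apoe, 1.68 for Fabp7 and -0.46 for Mertk, and Clu was called as well at 0.23 (edgeR adjusted p = 0.022). Mertk was lower at ZT20 without overlap in 5 of 5 subclusters, and Apoe, Fabp7 and Lrp1 were higher without overlap in 4 of 5. Clu was higher in 4 and lower in 1, subcluster 0, where it was at 738 and 740 CPM at ZT8 and at 647 and 619 CPM at ZT20. The subclusters come from the same 4 libraries, so these counts are not independent repeats. No such counts were made over all genes. Subcluster 4, led by Gfap, an intermediate filament of reactive and fibrous astrocytes, had the highest Apoe, at 7053 and 7250 CPM at ZT8 and 13456 and 12838 CPM at ZT20, from 6 to 19 nuclei a library. Subcluster 3 had the highest Mertk of the 5, at 1092 and 1240 CPM at ZT8 and 672 and 762 CPM at ZT20.

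**Figure D4:**
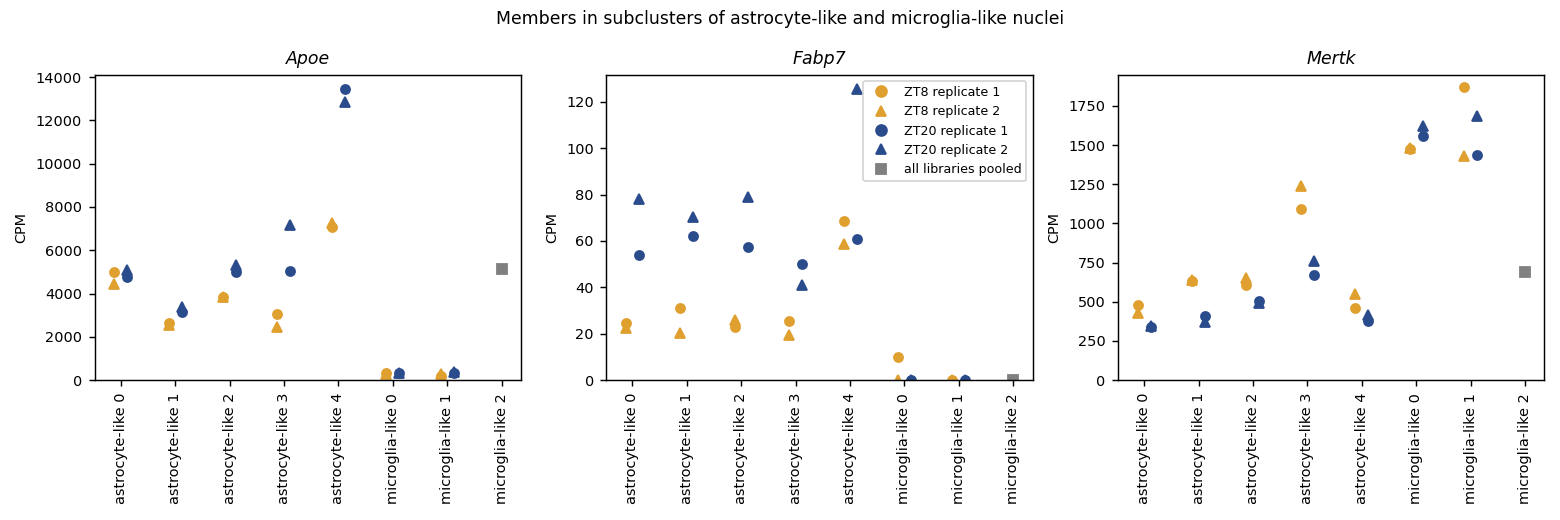
CPM of Apoe, Fabp7 and Mertk by library in the 5 astrocyte-like and 3 of the microglia-like subclusters (points, libraries with enough nuclei; grey squares, nuclei of all libraries pooled). Apoe reaches 13456 CPM in the Gfap-led astrocyte-like subcluster 4 and, pooled, 5156 CPM in the macrophage-led microglia-like subcluster 2.

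In microglia-like nuclei (122 to 124 in each library), 0 of the 6 members tested were called, where 0.729% of all 7134 genes were. At an unadjusted p under 0.05 edgeR gave 677 genes with 1 member, Lrp1, and DESeq2 gave 116 genes with 0 members. Lrp1 was at 358 and 395 CPM at ZT8 and at 296 and 315.5 CPM at ZT20 (log2 -0.30, adjusted p = 0.517). Mertk had a log2 difference of 0.05, Abca1 one of 0.25 and Abcg1 one of -0.10. The ribosomal and mitochondrial lists summed to 1.25-fold and 1.47-fold higher levels at ZT20 in these nuclei.

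Apoe in microglia-like nuclei was at 454, 787, 460 and 405 CPM, so the times overlapped and 1 ZT8 library stood high. In that library the 7 border macrophage markers summed to 439 CPM and the 10 astrocyte markers to 1043 CPM, against 101 to 268 CPM and 329 to 506 CPM in the other 3. A subcluster of 15 nuclei led by Mrc1, F13a1 and Cd163, genes of border macrophages, held Apoe at 5156 CPM and Cd36 at 173 CPM, and 7 of the 15 came from that library. The 366 and 105 nuclei of the subclusters 0 and 1 held Apoe at 327 and 287 CPM and no Cd36 UMI. Without the macrophage-led subcluster and 5 mixed nuclei, an alternative added after seeing the data, the Apoe difference turned from a log2 of -0.53 to 0.27 (edgeR adjusted p = 0.627), and the mean level from 527 to 317 CPM. With equal numbers of each subcluster it was 0.40 (adjusted p = 0.344). The same gene was called as lower at ZT20 with no filter on low counts (log2 -0.53, adjusted p = 0.0185), with a replicate block (-0.50, adjusted p = 0.0391) and without ZT8 replicate 1 (-0.87, adjusted p = 8.8e-08).

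In the other macroglia, Apoe was called in OPC-like and oligodendrocyte-like nuclei and Fabp7 in OPC-like nuclei. In OPC-like nuclei 2 of 8 members tested were called (1.21% of all genes). At an unadjusted p under 0.05 edgeR gave 1099 genes with 6 members (Apoe, Axl, Clu, Fabp7, Lrp1 and Mertk). DESeq2 gave 189 genes with 2 members, Apoe and Fabp7. Apoe was at 826 and 706 CPM at ZT8 and at 1101 and 1107 CPM at ZT20, without overlap (log2 0.55, SE 0.09, edgeR adjusted p = 1.76e-05). Fabp7 was at 29.4 and 25.6 CPM against 75.7 and 61.4 CPM, again without overlap (log2 1.34, SE 0.27, adjusted p = 0.000791). DESeq2 called neither, with adjusted p-values of 0.152 for Apoe and 0.9 for Fabp7. The Apoe call was also lost without ZT8 replicate 2 and after thinning to 1000 UMIs (edgeR adjusted p = 0.0656). The thinned Apoe share of OPC-like nuclei lay within the interval of the haemoglobin-led cluster and above that of the clusters with few UMIs. The other members tested were not called. Mertk was at 129 and 137 CPM at ZT8 and at 90.55 and 93.95 CPM at ZT20 (log2 -0.51, edgeR adjusted p = 0.135). Axl, from 54 UMIs in all, had a log2 difference of -1.25 (0.146), Clu 0.51 (0.178) and Lrp1 0.27 (0.312). Abca1 was at -0.19 (0.733) and Abcg1 at -0.12 (0.901). In OPC-like nuclei the 22 ribosomal genes summed to 1.28-fold and the 13 mitochondrial genes to 1.64-fold higher levels at ZT20.

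In oligodendrocyte-like nuclei 1 of 6 members was called, where 10.6% of all genes were. Apoe was at 488 and 500 CPM at ZT8 and at 512 and 590 CPM at ZT20 (log2 0.18, SE 0.05, edgeR adjusted p = 0.0101), a call lost in 6 of 12 alternative settings. The mix of these nuclei differed: subcluster 1 numbered 285 and 291 in the ZT8 libraries against 68 and 66 in the ZT20 libraries, and subcluster 0 numbered 220 and 256 against 310 and 261. Pooled by time, Apoe at ZT8 was at 621, 666, 389, 335 and 221 CPM in subclusters 0 to 4. With equal numbers of each subcluster its log2 difference was 0.14 and not called. Here the ribosomal list was 1.28-fold and the mitochondrial list 1.55-fold higher at ZT20. Fabp7 was at 4.71 and 6.29 CPM against 3.08 and 3.78 CPM, from 6 to 21 UMIs a library, and was not called (adjusted p = 0.482).

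Whether the change differed between classes was tested with a class-by-time term. Against oligodendrocyte-like nuclei, where 1.64% of genes were called, the term was called for Apoe (astrocyte-like minus oligodendrocyte-like log2 0.25, SE 0.07, edgeR adjusted p = 0.0252) and for Fabp7 (2.03, SE 0.50, adjusted p = 0.00645). The Apoe term was not called with RLE normalization (0.21, adjusted p = 0.19) or when any 1 of the 4 libraries was left out (0.13 to 0.28, adjusted p = 0.105 to 0.749). The Fabp7 term was not called when any library but ZT8 replicate 1 was left out (1.65 to 1.99, adjusted p = 0.0925 to 0.34). Against microglia-like nuclei 0% of 12337 genes were called by edgeR, although 688 genes and 4 members (Apoe, Axl, Fabp7 and Lrp1) had an unadjusted p under 0.05. DESeq2 was not run on this term. The Mertk difference there was -0.40 with an SE of 0.24 (adjusted p = 0.931), so a Mertk change particular to astrocyte-like nuclei was not shown.

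**Figure D5:**
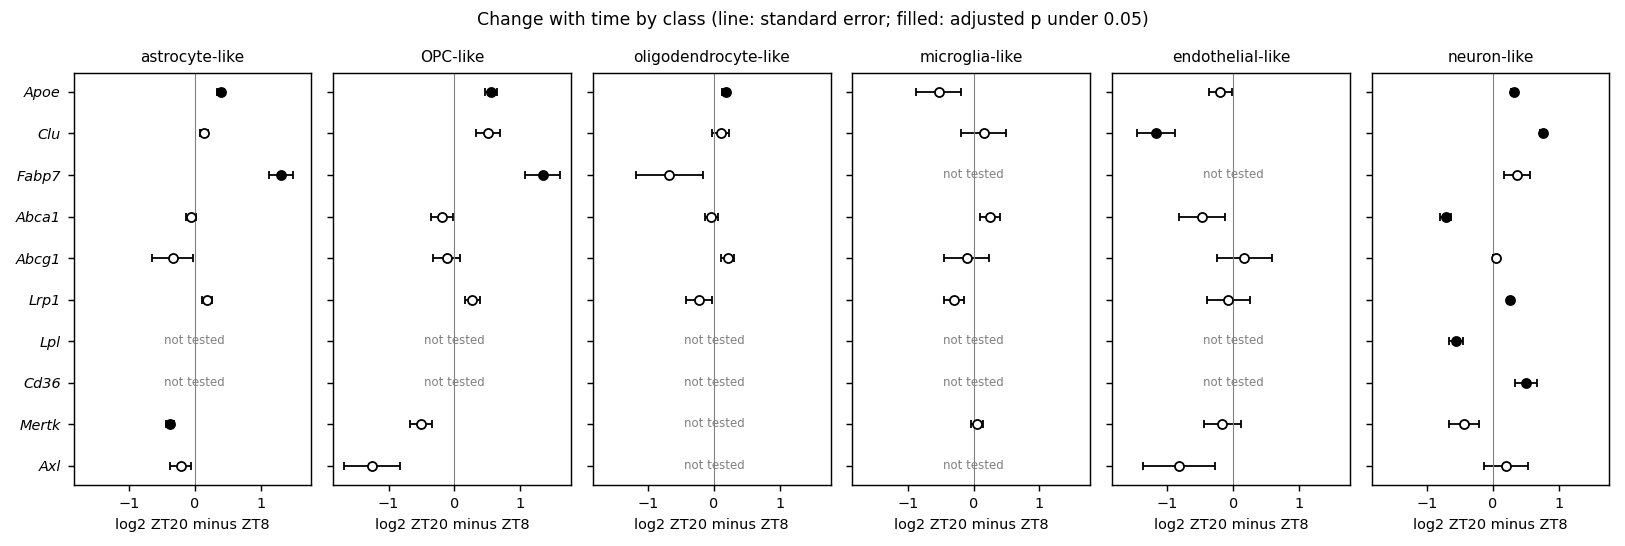
Log2 difference between ZT20 and ZT8 of the members tested in 6 classes (points, with SE; filled points have an adjusted p under 0.05, edgeR). Fabp7 is at 1.31 in astrocyte-like and 1.34 in OPC-like nuclei. Mertk is at -0.38 in astrocyte-like, -0.51 in OPC-like (not called) and 0.05 in microglia-like nuclei.

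Outside glia, 6 of 10 members were called in neuron-like nuclei, where 43.6% of all genes were, and the ribosomal and mitochondrial lists were 1.38-fold and 1.82-fold higher at ZT20. The mix of neurons differed as well: 1 of the neuron-like clusters numbered 471 and 457 in the ZT8 libraries against 1032 and 1058 in the ZT20 libraries, and another 539 and 589 against 266 and 257. Clu was at 30.2 and 30.1 CPM at ZT8 and at 54.3 and 51.6 CPM at ZT20, without overlap (log2 0.76, SE 0.04, edgeR adjusted p = 6.05e-13), and its lowest log2 over 12 alternatives was 0.43. This change was larger than in astrocyte-like nuclei by the class-by-time term (astrocyte-like minus neuron-like log2 -0.60, adjusted p = 2.34e-10), with 3.24% of genes called. Abca1 fell from 15 and 12.8 CPM to 9.33 and 8.10 CPM (log2 -0.72, adjusted p = 4.84e-07), and its term against astrocyte-like nuclei was 0.68 (adjusted p = 2.67e-07). The astrocyte-like Abca1 level was 23.2 to 39.8 times the neuron-like one within a library. In neuron-like nuclei the 10 astrocyte markers summed to 410 and 414 CPM at ZT8 and to 330 and 315.5 CPM at ZT20. The part of free RNA in the neuron-like Abca1 change was not tested. Lrp1 rose from 80.6 and 82.4 CPM to 101 and 101 CPM (log2 0.25, adjusted p = 1.25e-07). Apoe rose with a log2 of 0.32 at 1.39% to 1.70% of the astrocyte-like level, where a list of astrocyte RNAs had a median ratio of 2.99% to 3.26%. Cd36, at 1.72 to 2.80 CPM, was higher (log2 0.50, adjusted p = 0.0151), a call lost in 4 of 11 alternative settings. Lpl, at 4.09 to 6.30 CPM, was lower (-0.56, adjusted p = 0.000236), but at 0.01 with equal numbers of each subcluster. In endothelial-like nuclei 1 of 7 members was called (3.6% of all genes). Clu was at 257 and 199 CPM at ZT8 and at 136 and 71.7 CPM at ZT20 (log2 -1.17, adjusted p = 0.0148), a call lost in 5 of 11 alternative settings, while astrocyte markers there summed to 1218 and 1278 CPM against 684 and 544 CPM. Over all nuclei together, unnamed clusters included, 47.7% of genes and 9 of 10 members were called, Abcg1 not. DESeq2 called 7, without Axl and Lpl, whose calls were lost in 4 of 11 alternatives each, and Lpl turned to a log2 of 0.26 after thinning to 1000 UMIs. The Cd36 call was lost there too, in 1 of 11. The class makeup given above differs between times in these sums.

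The rest of the lipid pathway was read from 8 lists of 125 genes. In astrocyte-like nuclei 91 were tested, 9 were higher and 3 lower (6.26% of all genes were called), with a median log2 difference of 0.00 beside 0.00 over all genes. Among fatty acid transporters (2 of 10 tested higher), Slc27a1, a fatty acid importer, rose from 311 and 306 CPM to 399 and 418 CPM (log2 0.46, edgeR adjusted p = 1.03e-05). Mfsd2a, which carries lysophosphatidylcholine with omega-3 fatty acids, rose from 26.2 and 29.9 CPM to 58.2 and 61.5 CPM (log2 1.14, adjusted p = 1.54e-05). Among TAM ligands and phagocytosis genes (3 of 13 higher, 2 lower), Mfge8, a bridge between phosphatidylserine and integrins, rose from 112 and 136 CPM to 183 and 207 CPM (log2 0.70, adjusted p = 3.58e-06), and Gulp1, an engulfment adaptor, rose by 0.37. Megf11, a relative of the engulfment receptor Megf10, fell from 80.5 and 73.6 CPM to 27.5 and 42.8 CPM (log2 -1.09, adjusted p = 1.47e-05), and Adgrb1, a phosphatidylserine receptor, by a log2 of -0.32. Among lipoprotein receptors and their partners (3 of 18 higher), Lrpap1, a chaperone of Lrp1, rose by 0.57 and Sorcs2, a sorting receptor, by 0.36. Of 14 regulators 1 was called: Insig1, which holds sterol-sensing SREBP complexes in the endoplasmic reticulum, fell from 89.5 and 103 CPM to 55.5 and 62.8 CPM (log2 -0.66, adjusted p = 0.00104). None of 4 further apolipoproteins, 9 exporters or 15 cholesterol trafficking genes was called. The other called genes, named after their values were seen, were Lrp8, an apolipoprotein receptor (log2 0.55), Angptl4, an inhibitor of Lpl (0.98, at 10.1 to 24.2 CPM), and the integrin subunit Itgb5 (0.40). Of the 9 genes before these, DESeq2 kept Mfge8, Slc27a1, Mfsd2a and Megf11, and Gulp1 was not called with equal subclusters (adjusted p = 0.167).

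In microglia-like nuclei 0 of 58 list genes tested were called, with a median of -0.06 beside -0.01 over all genes. In oligodendrocyte-like nuclei 3 of 88 were higher and 3 lower, beside 10.6% of all genes called. Sort1, a sorting receptor, rose from 250 and 248 CPM to 306 and 324 CPM (log2 0.36, edgeR adjusted p = 2.44e-06), as did Stard3, which transfers cholesterol at late endosomes, by 0.51 and the transporter Abca8a by 0.28. DESeq2 called neither Stard3 (adjusted p = 0.192) nor Abca8a (0.343). Elmo1, which acts with Dock proteins in engulfment, fell from 1055 and 1125 CPM to 880 and 829 CPM (log2 -0.32, adjusted p = 3.66e-12), and the receptors Sorcs1 and Lrp1b by log2 values of -0.24 and -0.15. Abca8a was at -0.12 (adjusted p = 0.636) with equal subclusters. In OPC-like nuclei 0 of 76 were higher and 1, Elmo1, was lower (340 and 348.5 CPM against 234 and 260 CPM, log2 -0.45, adjusted p = 0.036). In endothelial-like nuclei, with 3.6% of all genes called, 2 of 64 were higher, Lrp8 and Mfsd2a, which transports lipids across the blood-brain barrier (log2 1.13 and 1.05). The 4 lower ones there were Gulp1, Lrp1b, Sorcs1 and Megf11, with log2 values of -1.30, -1.06, -2.12 and -2.10, beside the lower sums of astrocyte markers given above, whose part was not tested. In neuron-like nuclei 21 of 111 were higher and 34 lower, where 43.6% of all genes were called. Scarb1, a receptor for high-density lipoprotein, rose there from 28.3 and 26.6 CPM to 35.6 and 36.0 CPM (log2 0.33, adjusted p = 2.95e-06), and by 0.16 with equal numbers of each subcluster (adjusted p = 0.0401).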

How the data were processed

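The authors deposited raw UMI counts, as a gene-by-barcode matrix for each library; per the file headers these come from Cell Ranger 7.0.0, and per the submitters' processing notes Cell Ranger, STAR 2.6 and mm10 were used. Intron and strand counting are not given in the sources used here. The members and gene lists were chosen with earlier results of these data known.

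Barcodes under 500 genes or over 5% mitochondrial UMIs were dropped. Scrublet's automatic threshold marked 0 or 1 nuclei a library, so the highest scores were removed instead (0.8% per 1000 nuclei; 326 to 702). Clustering used scanpy 1.11.5 under Python 3.11.15 (3000 variable genes without the lipid genes, 40 components, 20 neighbours, Leiden resolution 1, leidenalg 0.10.2), giving 40 clusters, 22 of them named from markers. Unnamed clusters served as background and entered only the sums over all nuclei. UMIs were summed per class and library, in classes with at least 50 nuclei in each library, filtered with filterByExpr, scaled by TMM (trimmed mean of M values) and tested in edgeR 4.0.16 (R 4.3.3); DESeq2 1.42.0 was an alternative. Levels are CPM of the summed UMIs where a library held at least 20 nuclei. On simulated counts, the test recovered 76% of 2-fold changes in astrocyte-like and 41% in microglia-like nuclei. The list genes named were, per direction and in the astrocyte-, microglia-, oligodendrocyte- and neuron-like classes, up to 6 called genes of lowest p whose times did not overlap (for neuron-like nuclei only examples are named); other called list genes were named after their values were seen. Gene positions are from GENCODE M21 (GRCm38). Same-time libraries differed by more than sampling noise and were kept as separate samples.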

Additional observations from a re-analysis of the deposited data

Results flagged for a closer look

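Of the member results, 4 were looked at again because the change between times differed between 2 classes by the class-by-time term in edgeR. The astrocyte-like minus oligodendrocyte-like log2 difference was 0.25 for Apoe and 2.03 for Fabp7, which in oligodendrocyte-like nuclei rests on 6 UMIs in the lowest library. The Apoe term was not called with RLE normalization (0.21) or when any 1 of the 4 libraries was left out (0.13 to 0.28). The Fabp7 term was not called in 3 of the 4 fits that left out a library (1.65 to 1.99). The astrocyte-like minus neuron-like difference was 0.68 for Abca1 and -0.60 for Clu. The part of free RNA in the neuron-like Abca1 change was not tested.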

How the results depend on the processing

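In astrocyte-like nuclei Apoe, Fabp7 and Mertk kept direction and call in 12 of 12 alternatives (0.30 to 0.44, 1.14 to 1.68 and -0.46 to -0.35; highest adjusted p 1.05e-05, 0.00167 and 0.0191). Replicate numbers did not pair the libraries (correlation of same-numbered deviations -0.01 in astrocyte-like, 0.072 in microglia-like, -0.022 in oligodendrocyte-like and -0.016 in neuron-like nuclei); with a replicate block 3, 1, 1 and 6 members were called there. The microglia-like count went from 0 to 1 (Apoe) with the replicate block, with no filter on low counts and over a range of 0 to 1 when single libraries were left out. The oligodendrocyte-like count went from 1 to 0 with DESeq2, equal subclusters or thinning to 1000 UMIs, and was 0 to 1 without single libraries. The astrocyte-oligodendrocyte term went from 2 members to 1 with RLE normalization and to 0 to 1 without single libraries; the astrocyte-microglia term was called for 0 to 2 without single libraries, and 2 without ZT8 replicate 1. The cause of these was not tested.

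Log2 values that reversed, none of them called as reported except Lpl, were as follows. With equal subclusters Apoe in microglia-like nuclei was 0.40, Lpl in neuron-like nuclei 0.0111 and Axl there -0.10; without macrophage-led and mixed nuclei Apoe was 0.27. With thinning Abca1 was 0.0574 in OPC-like, -0.0711 in microglia-like and 0.0186 in oligodendrocyte-like nuclei, Apoe 0.11 in endothelial-like, Abcg1 0.0795 in microglia-like and Lpl 0.26 over all nuclei. Leaving out single libraries gave ranges across 0: in OPC-like nuclei Abca1 -0.49 to 0.0559 and Abcg1 -0.36 to 0.15; in endothelial-like nuclei Abcg1 -0.14 to 0.59, Lrp1 -0.44 to 0.28 and Mertk -0.39 to 0.024; in microglia-like nuclei Clu -0.30 to 0.89 and Mertk -0.0162 to 0.105; Mertk in neuron-like nuclei -0.75 to 0.014; in oligodendrocyte-like nuclei Clu -0.0112 to 0.22 and Abca1 -0.11 to 0.0143; Abcg1 over all nuclei -0.0208 to 0.00648. Depth limits Fabp7, Lpl, Cd36 and Axl most: Fabp7 rests on 41 to 122 UMIs a library in astrocyte-like nuclei.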
